A study of Macaca mulatta with 51 samples.

Results

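The genes described are NRG4, the neuregulin whose AT level was lower after FGF21 treatment and above the starting level at washout, with the neuregulins NRG1 and NRG2 and the receptors ERBB2, ERBB3, ERBB4 and EGFR, 7 genes of the 16033 in the count table. They were found by their gene symbols, and all 7 symbols stood on 1 gene identifier each. NRG4 was selected on its AT values at the 3 time points, so its levels and changes in AT are given as a description without a test, and they support nothing. The other 6 members were taken for their place in the same ligand and receptor family and were tested, as was NRG4 in SM.

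Biopsies were punched from subcutaneous AT and from the gastrocnemius (SM) of obese, non-diabetic adult rhesus macaques (males and ovariectomized females) kept on a high-fat diet for years. The animals were sampled before treatment (pre), after 12 weeks of daily subcutaneous native human FGF21 at increasing doses (post), and 16 weeks after the last dose (washout). AT was represented by 10 pre, 9 post and 8 washout libraries of 10 animals, and SM by 6, 8 and 7 libraries of 8 animals. No untreated animals were followed over the same time, so each animal's pre sample was its control, and the effect of treatment cannot be told apart from time or from the weight lost.

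Neuregulins are ligands with an EGF-like domain that bind ERBB3 or ERBB4 on the cell surface. ERBB2 binds no known ligand and pairs with the other receptors, and ERBB3 has little kinase activity of its own, so that signaling runs through receptor pairs. NRG4 binds ERBB4 and is known as a factor secreted by adipose tissue, NRG1 is best known as a signal from nerve to muscle and Schwann cells, and EGFR binds EGF, TGFA, amphiregulin (AREG) and related ligands.

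Total counts ranged from 15756491 to 23940980 per AT library (median 19081259) and from 14455195 to 21740711 per SM library (median 17114678). Levels are given as CPM, the reads of a gene scaled to a common library size, after TMM scaling within each tissue, which does not correct for gene length, so that levels of different genes were not compared. Differential expression (DE) was an adjusted p under 0.05 from edgeR's quasi-likelihood test (Benjamini-Hochberg over the genes tested) together with a log2 fold change of more than 0.26 up or down. The labelled tissues carried their defining markers. The 6 adipocyte markers in the table summed to 9688 to 33600 CPM in AT libraries and 42.0 to 1229 CPM in SM libraries, and the 12 muscle fiber markers to 83.2 to 535 CPM in AT and 71000 to 321600 CPM in SM. The lowest fiber sum was that of the SM post library of animal 21189, which also correlated least with the other SM libraries (median r = 0.864 across genes). In bulk tissue, fewer cells of a type and less RNA per cell cannot be told apart.

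In AT, NRG4 (ENSG00000169752) was detected in every library, with 18 to 254 reads. Its level before treatment was 5.76 ± 2.18 CPM (SD, n = 10), ranging from 2.89 to 9.71 CPM with a median of 5.35 CPM. After treatment it was 1.98 ± 1.03 CPM (n = 9), ranging from 0.904 to 3.78 CPM with a median of 1.54 CPM. At washout it was 9.08 ± 2.27 CPM (n = 8), ranging from 4.64 to 12.7 CPM with a median of 9.27 CPM. The post libraries lay lowest, and the post and washout ranges did not overlap, whereas the pre range overlapped both. On the log2 scale NRG4 differed by -1.53 (SE 0.27) from pre to post, 2.23 (SE 0.27) from post to washout and 0.70 (SE 0.24) from pre to washout.

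The pattern was seen animal by animal. NRG4 was lower after treatment in 8 of the 9 animals with both samples, by up to 3.12 on the log2 scale in animal 20275, where it went from 8.64 to 0.904 CPM. Animal 20261 was the exception, with 2.89 CPM before and 3.78 CPM after treatment. All 8 animals with 3 samples had their highest level at washout, and 7 of them had their lowest at the post time point. At washout the excess over the pre level ranged from 0.07 on the log2 scale in animal 22130 to 1.65 in animal 20261. Library identifiers form 3 number series, and whether these are batches is not known. Among animals with both libraries in the last series, the mean log2 change of NRG4 was -1.55 from pre to post (6 animals), 1.98 from post to washout (3 animals) and 1.03 from pre to washout (3 animals).

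**Figure D1:**
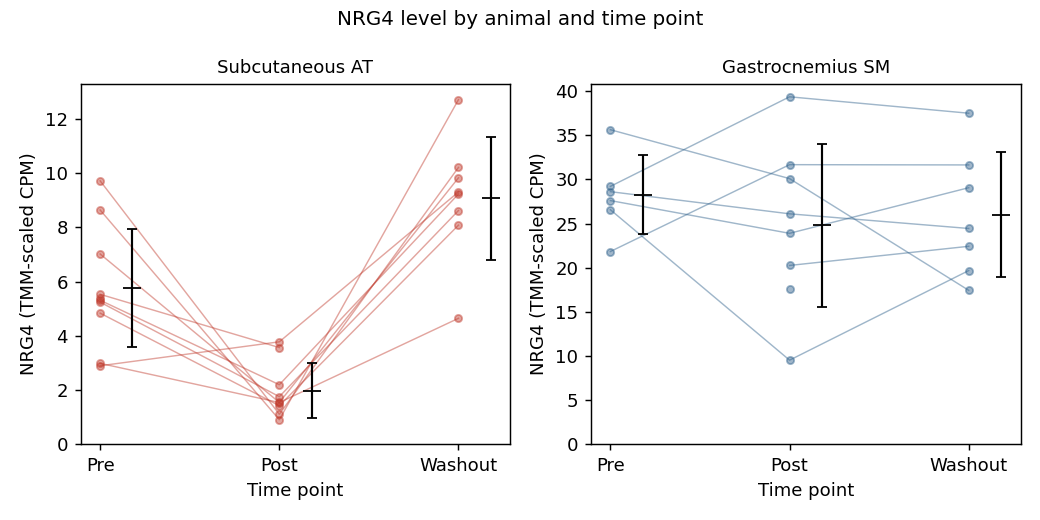
NRG4 level in TMM-scaled CPM (y axis, from 0, with a separate scale for each tissue) at the 3 time points (x axis) in AT (left) and SM (right). Each point is a library, lines join libraries of 1 animal, and the black marks are means with SD. In AT the post libraries lie between 0.904 and 3.78 CPM, below every washout library, while the SM libraries overlap at all 3 time points.

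In SM, NRG4 stood at a higher level and was not DE at any time point. It was 28.2 ± 4.47 CPM before treatment (n = 6; 21.8 to 35.6 CPM), 24.8 ± 9.23 CPM after treatment (n = 8; 9.53 to 39.4 CPM) and 26.0 ± 7.10 CPM at washout (n = 7; 17.4 to 37.5 CPM). The 3 ranges overlapped widely, and the lowest library was the post library of animal 21189. It changed by -0.18 on the log2 scale (SE 0.22, unadjusted p = 0.412) from pre to post, 0.06 (SE 0.20, adjusted p = 0.911) from post to washout and -0.13 (SE 0.22, adjusted p = 0.844) from pre to washout. Without that post library, left out after its values were seen, the change from pre to post was 0.01. The AT change minus the SM change of NRG4 was -1.37 (SE 0.37) from pre to post, 2.18 (SE 0.36) from post to washout and 0.81 (SE 0.36) from pre to washout on the log2 scale, given without a test because the AT changes chose the gene.

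The 7 members differed in how the tissues stood to each other before treatment. Fitted together over both tissues, 3 of the 6 members other than NRG4 were DE between AT and SM, against 77.1% of the 13662 genes tested. NRG4 stood 8.85-fold lower in AT (log2 difference -3.14, SE 0.26), given without a test because its AT pre values helped to choose it. Its receptor ERBB4 was 5.46-fold lower in AT (log2 difference -2.45, SE 0.30, adjusted p = 3.76e-09). ERBB3 was lower in AT by a log2 difference of -2.44 (SE 0.58, adjusted p = 3.15e-04), and EGFR was higher in AT by 1.37 (SE 0.26, adjusted p = 1.35e-05). NRG1, NRG2 and ERBB2 were not DE (log2 differences of 0.27, 0.30 and 0.25, SE 0.92, 0.41 and 0.21). Scaling decides part of this comparison. With library size only, the median log2 difference of all genes went from 0.17 to 0.90, and ERBB2 (0.97, adjusted p = 8.55e-04) and NRG2 (1.05, adjusted p = 0.0349) were then DE, each near that shifted median, while the 3 calls above kept their direction and stayed DE. Over all alternatives the log2 difference ranged from -3.29 to -2.41 for NRG4 and from -2.73 to -1.74 for ERBB4. The folds above therefore depend on the settings.

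Of the other neuregulins in AT, neither was DE at any time point by edgeR. NRG1 (ENSG00000157168) was near the limit of detection, with 0 to 11 reads per AT library and 0 reads in 6 of the 27. Its mean was 0.243 ± 0.232 CPM before treatment, 0.112 ± 0.095 CPM after treatment and 0.125 ± 0.211 CPM at washout, and the adjusted p was 0.193, 0.968 and 0.240 for post against pre, washout against post and washout against pre. In SM it had 0 reads in 16 of 21 libraries and failed the filter on low counts, so it was not tested there. With limma voomWithQualityWeights, NRG1 was DE in AT from pre to post (log2 fold change -1.37, adjusted p = 0.0332), on at most 11 reads per library. It reached 0.5 CPM in 3 of the 27 AT libraries, none of them post, where the highest was at 0.280 CPM. NRG1 thus entered the AT tests through pre and washout libraries where it was high, and its adjusted p carry that limit.

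NRG2 (ENSG00000158458) was 1.62 ± 0.420 CPM in AT before treatment (0.958 to 2.36 CPM), 1.76 ± 0.325 CPM after it (1.24 to 2.23 CPM) and 2.20 ± 0.459 CPM at washout (1.71 to 2.73 CPM). The ranges overlapped, and the washout level was above the pre level in 7 of 8 animals. The log2 fold change from pre to washout was 0.45 (SE 0.16, adjusted p = 0.0558), just outside the threshold, and NRG2 was DE with limma voomWithQualityWeights (adjusted p = 0.0192). In SM, NRG2 ranged from 0.069 to 1.94 CPM, with 1 to 46 reads per library, and was not DE. Its 2 highest values at the post and washout time points were both those of animal 21189 (1.88 and 1.83 CPM).

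Among the receptors in AT, ERBB2 was lower after treatment and EGFR was lower at washout. At each of the 3 comparisons 1 of the 6 members tested was DE, and it was lower, which can be read against 15.5% of all 13367 AT genes being DE from pre to post, 35.4% from post to washout and 20.5% from pre to washout. Among 6 genes, 1 is near or below these background shares.

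ERBB2 (ENSG00000141736), the shared partner of the receptor pairs, was 52.0 ± 10.7 CPM before treatment (34.8 to 67.5 CPM, median 53.5 CPM), 38.4 ± 5.57 CPM after it (28.1 to 46.7 CPM, median 37.4 CPM) and 42.7 ± 8.24 CPM at washout (33.4 to 57.4 CPM, median 42.0 CPM). The ranges overlapped, and 7 of 9 animals were lower after treatment. It fell by 0.42 on the log2 scale from pre to post (SE 0.13, adjusted p = 0.0381). The edgeR call was lost when animal 20261, 20275, 21189, 21866, 22130 or 23004 was left out (adjusted p from 0.0556 to 0.113). It was also lost with limma voomWithQualityWeights (adjusted p = 0.0736), with the identifier series in the model (0.0523), in the last series alone (0.122) and with only the 2 time points fitted (0.0602). The log2 fold change stayed between -0.50 and -0.31. From pre to washout the change was -0.28 (SE 0.14, adjusted p = 0.156).

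EGFR (ENSG00000146648) was 8.13 ± 2.23 CPM before treatment (4.54 to 11.4 CPM, median 7.95 CPM) and 7.88 ± 2.20 CPM after it (4.12 to 10.6 CPM, median 8.47 CPM). At washout it was 4.17 ± 2.11 CPM (1.80 to 8.43 CPM, median 4.11 CPM), and 7 of the 8 washout libraries lay below 9 of the 10 pre libraries. EGFR was lower at washout than before treatment in 8 of 8 animals and lower than after treatment in 7 of 8. It fell by 0.97 on the log2 scale from pre to washout (SE 0.24, adjusted p = 0.00571) and by 0.99 from post to washout (SE 0.24, adjusted p = 0.00387). Both calls remained when any 1 animal was left out and within the last identifier series (adjusted p = 0.032 and 0.044). From pre to post EGFR was not DE (log2 fold change 0.02, SE 0.22, adjusted p = 0.961).

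In SM, EGFR moved the other way without passing the threshold. It was 1.82 ± 0.554 CPM before treatment (1.07 to 2.37 CPM), 2.50 ± 0.932 CPM after it (1.23 to 4.35 CPM) and 3.38 ± 1.03 CPM at washout (1.71 to 4.598 CPM). The washout level was above the pre level in 6 of 6 animals, with a log2 fold change of 0.87 (SE 0.28, unadjusted p = 0.00694, adjusted p = 0.247). The AT change minus the SM change of EGFR was -1.44 from post to washout (SE 0.36, adjusted p = 0.00426) and -1.88 from pre to washout (SE 0.37, adjusted p = 4.96e-04), tested over 12322 genes.

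ERBB3 (ENSG00000065361), a receptor of NRG1 and NRG2, was 3.44 ± 3.10 CPM in AT before treatment (1.22 to 11.6 CPM, median 2.17 CPM), 3.94 ± 2.38 CPM after it (1.10 to 8.18 CPM, median 3.32 CPM) and 9.99 ± 8.84 CPM at washout (2.66 to 28.2 CPM, median 7.79 CPM). The groups overlapped, with 4 washout libraries above 10 CPM, at 10.9, 12.9, 14.9 and 28.2 CPM, and 4 from 2.66 to 4.64 CPM. Above 10 CPM there were 1 of 10 pre and 0 of 9 post libraries. Its log2 fold change from pre to washout was 1.52 (SE 0.54), with an adjusted p of 0.0501, just outside the threshold, in the form of edgeR's quasi-likelihood fit used throughout. That form was 1 of 6 fitted, and was settled on after the members had been seen under the legacy form, the default of the edgeR version used. ERBB3 was DE in the other 5 forms (adjusted p from 0.0445 to 0.0491), so its call depends on this choice. These 5 are not separate counts, because changing the robust dispersions or the library sizes left the legacy result as it was (0.0491). Over 22 alternative settings ERBB3 was DE in 11, and the adjusted p ranged from 0.00169 to 0.160, with 0.0101 by DESeq2.

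Libraries with high ERBB3 in part also held reads of epithelial genes. The 12 keratinocyte and gland epithelium markers in the table summed to more than 50 CPM in 4 AT libraries, pre of animal 23004 (197 CPM, ERBB3 11.6 CPM), post of 23004 (85.0 CPM, ERBB3 3.27 CPM), washout of 21189 (ERBB3 28.2 CPM) and washout of 21866 (100 CPM, ERBB3 12.9 CPM). The washout libraries of animals 20261 and 20275, with ERBB3 at 10.9 and 14.9 CPM, had sums of 15.7 and 11.9 CPM. Without the 4 libraries, left out after their values were seen, the log2 fold change of ERBB3 from pre to washout was 1.55 (adjusted p = 0.117). That fit held fewer libraries, and in it the EGFR changes were -0.85 from pre to washout (adjusted p = 0.0992) and -0.84 from post to washout (adjusted p = 0.06), and that of ERBB2 from pre to post was -0.43 (adjusted p = 0.0584), all 3 outside the threshold. The part of epithelial RNA in the ERBB3 values was not tested further.

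**Figure D2:**
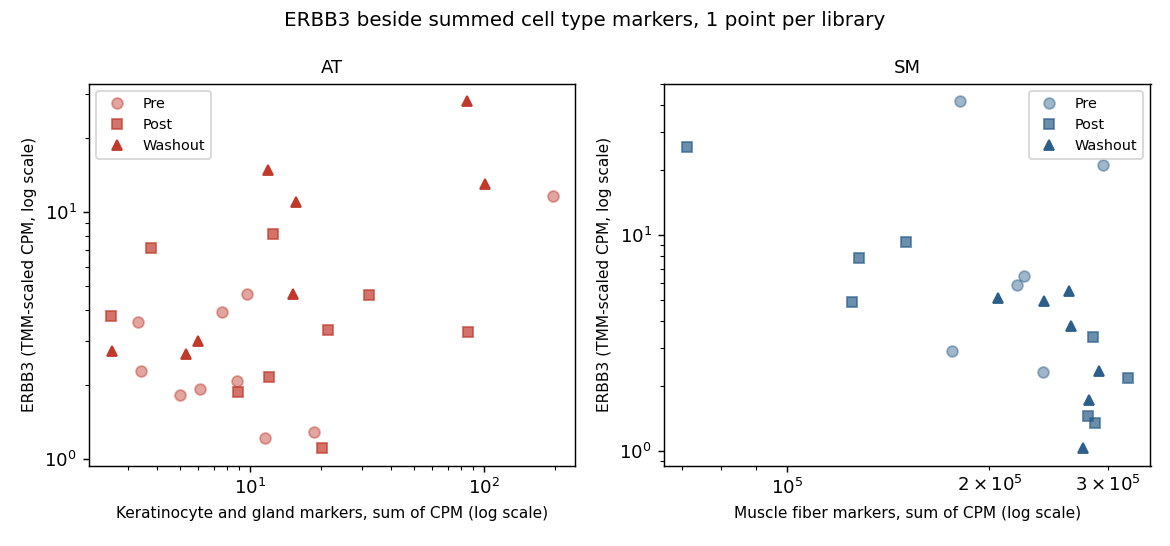
ERBB3 level (y axis, TMM-scaled CPM, log scale) beside the summed CPM of keratinocyte and gland markers in AT (left, x axis, log scale) and of muscle fiber markers in SM (right, x axis, log scale), with 1 point per library and a marker shape per time point. In AT 4 washout libraries lie above 10 CPM, 2 of them with marker sums above 50 CPM, and in SM the post library with the lowest fiber sum, 71000 CPM, has ERBB3 at 25.5 CPM.

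In SM, ERBB3 varied widely between animals and was not DE. It was 13.4 ± 15.5 CPM before treatment, with values of 41.7 CPM in animal 23004 and 20.99 CPM in animal 19832 and the other 4 libraries from 2.33 to 6.49 CPM. After treatment it was 6.99 ± 8.03 CPM (1.35 to 25.5 CPM), with the highest value in animal 21189, and at washout 3.499 ± 1.80 CPM (1.03 to 5.501 CPM). From pre to washout ERBB3 in SM changed by -1.57 on the log2 scale (SE 0.81, adjusted p = 0.413). The AT change minus the SM change of ERBB3 from pre to washout was 3.15 (SE 1.0, adjusted p = 0.0264). That call was lost when animal 19832, 20261, 20275 or 21866 was left out (adjusted p from 0.0583 to 0.0947).

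ERBB4 (ENSG00000178568), the receptor of NRG4, was low and near level in AT, at 1.12 ± 0.361 CPM before treatment, 0.945 ± 0.419 CPM after it and 1.01 ± 0.426 CPM at washout, with 10 to 35 reads per library. It was not DE, with log2 fold changes of -0.31 (SE 0.20, adjusted p = 0.289), 0.10 (SE 0.22, adjusted p = 0.743) and -0.21 (SE 0.21, adjusted p = 0.519) for post against pre, washout against post and washout against pre. It was lower after treatment in 8 of 9 animals. In SM, ERBB4 was 3.68 ± 1.57 CPM before treatment, 3.44 ± 1.43 CPM after it and 5.08 ± 1.60 CPM at washout. It was above the post level at washout in 6 of 7 animals, with a log2 fold change of 0.65 (SE 0.24, unadjusted p = 0.0159, adjusted p = 0.199).

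**Figure D3:**
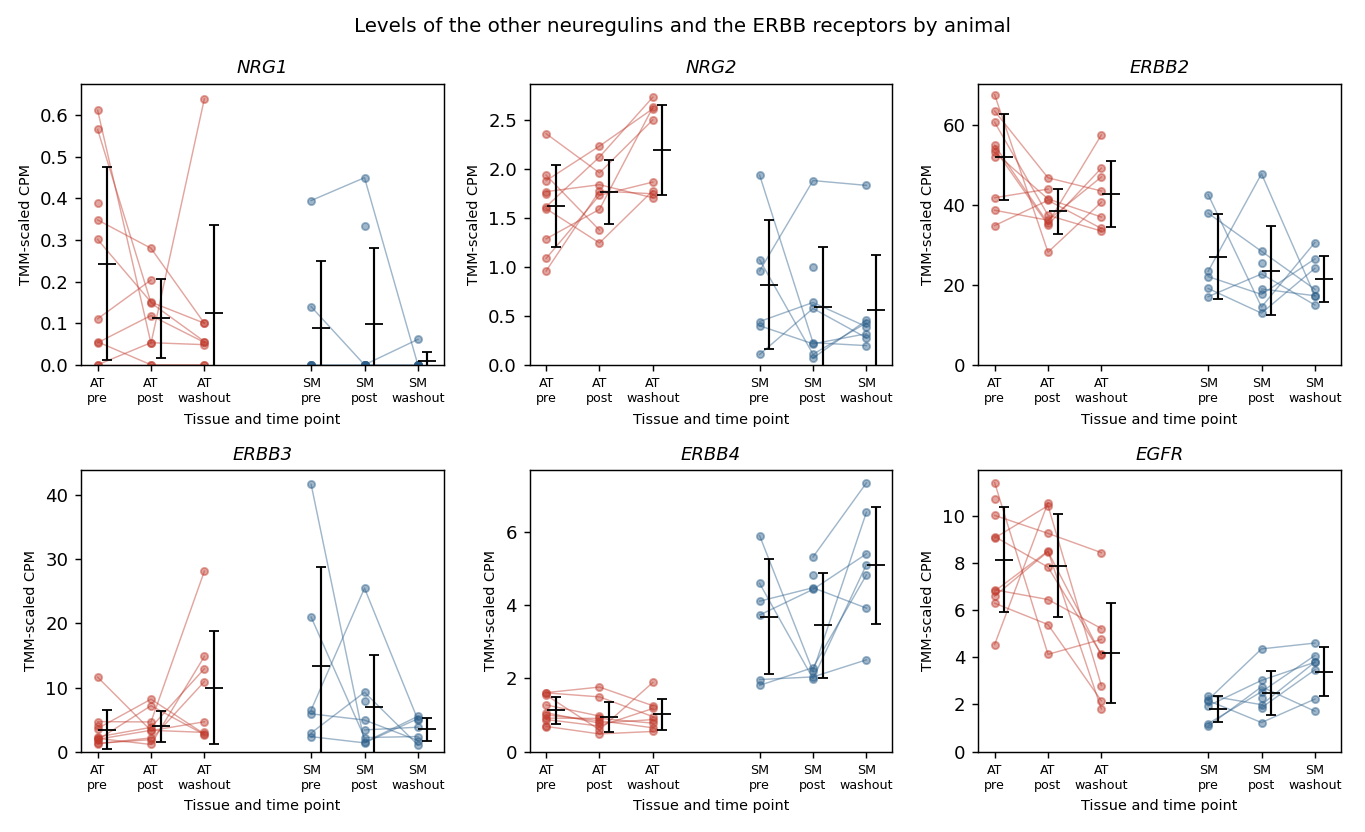
Levels of the 6 other members in TMM-scaled CPM (y axis from 0, a scale per gene) in AT (red) and SM (blue) at each time point (x axis). Points are libraries, lines join libraries of 1 animal, and black marks are means with SD, cut at 0 where the SD exceeds the mean. The AT washout libraries of EGFR lie between 1.80 and 8.43 CPM, and those of ERBB3 spread from 2.66 to 28.2 CPM.

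None of the 6 members tested in SM was DE at any comparison, where 0% of the 12617 genes tested were DE from pre to post, 0.19% from post to washout and 0.0634% from pre to washout. Those shares depend on the model. The 24 DE genes from post to washout became 9 with limma voomWithQualityWeights, 359 with DESeq2, 2650 with the identifier series as a covariate and 3026 in the last series alone, and the 8 from pre to washout became 11, 170, 1355 and 1. Of the members, ERBB3 from post to washout in the last series alone was the 1 SM call in these alternatives (log2 fold change -2.003, adjusted p = 0.0151). Only 2 animals had both SM libraries in that series, 21189 (change of -2.34) and 24849 (-1.46). The post library of 21189 was the one with the lowest fiber sum. No gene was DE from pre to post by edgeR, limma voomWithQualityWeights or DESeq2 (410, 479 and 388 genes at an unadjusted p under 0.05). Of the members, 0, 1 and 1 had an unadjusted p under 0.05 in the 3 comparisons, ERBB4 from post to washout and EGFR from pre to washout. Most SM post libraries belong to the first identifier series (5 of 8) and most washout libraries to the last (6 of 7), so that series and time point can hardly be told apart in SM. For the difference of change between tissues, 0, 1 and 2 of the 5 members tested were past an adjusted p of 0.05, against 0.0325%, 22.8% and 18.2% of the genes tested.

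**Figure D4:**
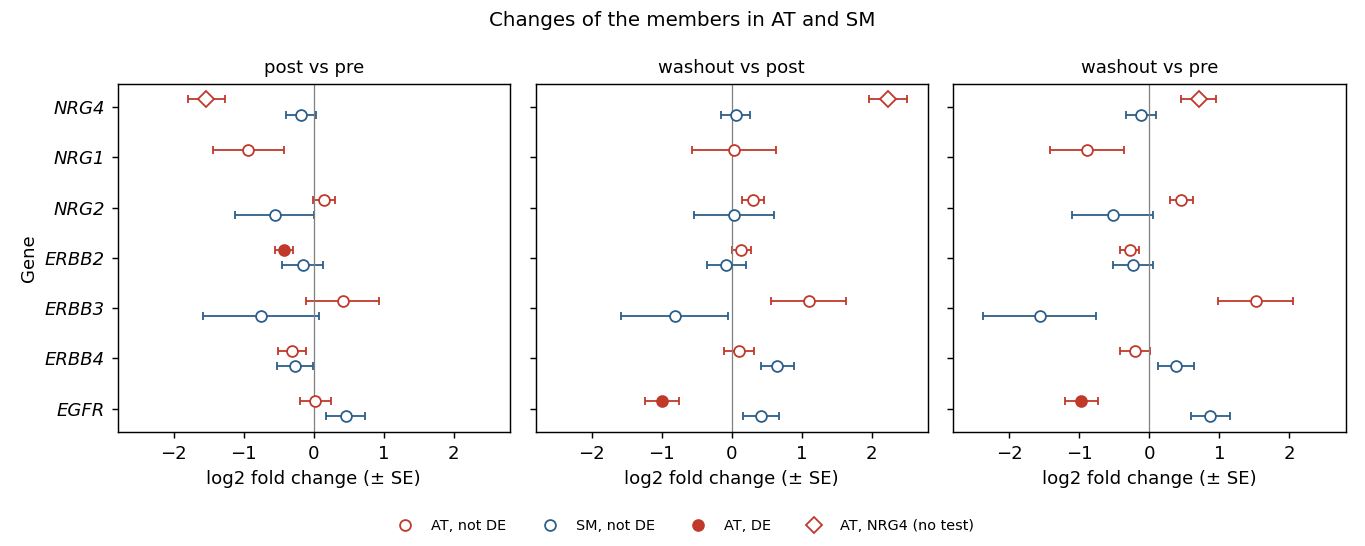
The log2 fold change (x axis, bars are ± SE) of each member (y axis) in the 3 comparisons, AT in red and SM in blue. Filled points are DE, and diamonds are NRG4 in AT, given without a test. ERBB2 from pre to post and EGFR in both washout comparisons are the filled points, and NRG1 has no SM point because it failed the filter there.

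The genes whose AT pattern was most like that of NRG4 were found by Pearson's r of log2 CPM over the 27 AT libraries, which share animals, among 12138 other genes that averaged 1 CPM or more. They were BHMT2 (r = 0.909), FAM189A2 (0.891), the amino acid transporter gene SLC38A3 (0.884), RBPMS2 (0.882) and DOCK3 (0.879). BHMT2 went from 28.9 ± 9.75 CPM before treatment to 12.2 ± 4.32 CPM after it and 39.4 ± 15.1 CPM at washout. SLC38A3 went from 12.2 ± 6.53 to 1.60 ± 1.69 and 21.3 ± 11.96 CPM. The mean level of all 5 was lowest post and highest at washout, the order of NRG4, for which they were picked. With values centred within each animal, their r ranged from 0.917 to 0.958, in the same libraries that picked them. Neither value is evidence beyond the selection.

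Among the genes with the most opposite pattern were MESDC1 (r = -0.888) and BACH1 (-0.867). The sum of 12 macrophage markers had a median of 1362 CPM before treatment (680 to 2478 CPM), 2791 CPM after it (1027 to 5677 CPM) and 705 CPM at washout (418 to 2247 CPM). Of the 12, 4 were DE and higher from pre to post, 12 DE and lower from post to washout and 6 DE and lower from pre to washout. Their median log2 fold changes were 0.905, -1.7 and -0.854. Of the 6 adipocyte markers, 3 were DE and lower from pre to post, 2 DE and higher from post to washout and 0 DE from pre to washout. Their median log2 fold changes were -0.413, 0.0218 and -0.329. Over all AT genes, 15.5%, 35.4% and 20.5% were DE in these comparisons. The part of these cell types in the NRG4 and EGFR values was not tested. NRG1 averaged under 1 CPM and was given no r. None of the remaining members followed NRG4 closely, with r from -0.327 for EGFR to 0.341 for ERBB2. With values centred within each animal these 2 were -0.388 and 0.458.

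Other EGF-family ligands were at low levels in AT apart from HBEGF and BTC. Of 6 tested, 2 were higher from pre to post, and 1 was higher in each washout comparison, and the others were not DE, beside the 15.5%, 35.4% and 20.5% of all AT genes given above. AREG, a ligand of EGFR, went from 0.067 ± 0.083 to 0.430 ± 0.512 CPM from pre to post (log2 fold change 2.91, SE 0.70, adjusted p = 0.00856), and EREG, a ligand of EGFR and ERBB4, from 0.311 ± 0.246 to 1.09 ± 1.02 CPM (1.65, SE 0.55, adjusted p = 0.0454). The EREG call was lost in 10 of 21 alternatives. EPGN, a further EGFR ligand, rose to 0.823 ± 0.307 CPM at washout from 0.209 ± 0.169 CPM post and 0.119 ± 0.121 CPM pre (log2 fold change 1.85 from post, SE 0.34, adjusted p = 2.2e-04; 2.55 from pre, SE 0.38, adjusted p = 2.48e-05). All 3 ligands were near or below 1 CPM. The highest AT pre library was at 0.243 CPM for AREG and 0.387 CPM for EPGN, below the 0.5 CPM of the filter. These 2 genes thus entered the tests through the later libraries, where they were high, and their adjusted p carry that limit. HBEGF was lower in AT than in SM before treatment (log2 difference -3.83, SE 0.30, adjusted p = 4.88e-14), and BTC was higher (1.61, SE 0.27, adjusted p = 1.44e-06).

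Among 12 tested genes of ligand release and receptor cleavage, 2 were DE in AT from pre to post (1 higher, 1 lower), 6 from post to washout (1 higher, 5 lower) and 4 from pre to washout (all lower). These are 16.7%, 50% and 33.3% of the list, against 15.5%, 35.4% and 20.5% of all AT genes. The median log2 fold change of the list was 0.18, -0.27 and -0.14, beside medians of 0.03, 0.00 and -0.02 over all AT genes. The sheddase gene ADAM10 fell by 0.74 from post to washout (SE 0.12, adjusted p = 1.52e-04) and by 0.55 from pre to washout (SE 0.12, adjusted p = 0.00223), and ADAM12 by 2.12 (SE 0.37, adjusted p = 3e-04) and 1.35 (SE 0.36, adjusted p = 0.011). NCSTN, a subunit of gamma-secretase, which cleaves ERBB4, fell by 0.40 from pre to post (SE 0.09, adjusted p = 0.0118), while APH1A, another subunit, rose by 0.29 (SE 0.09, adjusted p = 0.0337) and then fell by 0.43 from post to washout (SE 0.09, adjusted p = 0.00156). The APH1A call from pre to post was lost in 9 of 22 alternatives.

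Of 33 adaptors and kinases of the pathway, 5 were DE in AT from pre to post (1 higher, 4 lower), 14 from post to washout (2 higher, 12 lower) and 11 from pre to washout (2 higher, 9 lower), with list medians of 0.00, -0.22 and -0.17. The shares of 15.2%, 42.4% and 33.3% stand against the same 15.5%, 35.4% and 20.5%. HRAS and AKT1 fell from pre to post (-0.47 and -0.33, SE 0.12 and 0.09, adjusted p = 0.014 and 0.0252) while NCK1 rose (0.35, SE 0.07, adjusted p = 0.0068). At washout PTPN11, the phosphatase that links receptors to RAS, was lower than before treatment (log2 fold change -1.46, SE 0.22, adjusted p = 7.08e-05), as were PIK3CA (-0.82, SE 0.13, adjusted p = 1.73e-04) and BRAF (-0.80, SE 0.12, adjusted p = 9.27e-05).

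Of 20 inhibitors, ubiquitin ligases and chaperones, 0 were DE in AT from pre to post, 7 were lower from post to washout and 6 were DE from pre to washout (2 higher, 4 lower). The medians were 0.06, -0.10 and -0.18, and the shares of 0%, 35% and 30% from first to last comparison again stand beside 15.5%, 35.4% and 20.5%. CBL, the ubiquitin ligase that sends EGFR for degradation, fell by 1.29 from post to washout (SE 0.15, adjusted p = 9.64e-06) and by 1.35 from pre to washout (SE 0.15, adjusted p = 5.22e-06). USP8, a deubiquitinase that acts on EGFR, fell by 0.48 (SE 0.08, adjusted p = 2.84e-04) and 0.30 (SE 0.08, adjusted p = 0.0142). In AT the neuromuscular junction genes held 1 DE gene of 11 from pre to post, 7 from post to washout (4 higher, 3 lower) and 4 from pre to washout (3 higher, 1 lower), which is 9.09%, 63.6% and 36.4% of the list. Among them was RAPSN, the receptor-clustering protein of the synapse, with 1.82 from pre to washout (SE 0.25, adjusted p = 3.02e-05). The 3 higher from pre to washout also counted CHRNG, with AT means of 0.183 CPM pre, 0.193 CPM post and 0.727 CPM at washout. Only its washout mean was above the 0.5 CPM of the filter, so its call and the list share carry the limit given for AREG and EPGN. In SM, none of the 4 ligands, 12 release genes, 33 adaptors, 20 inhibitors or 13 junction genes tested was DE in any comparison.

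**Figure D5:**
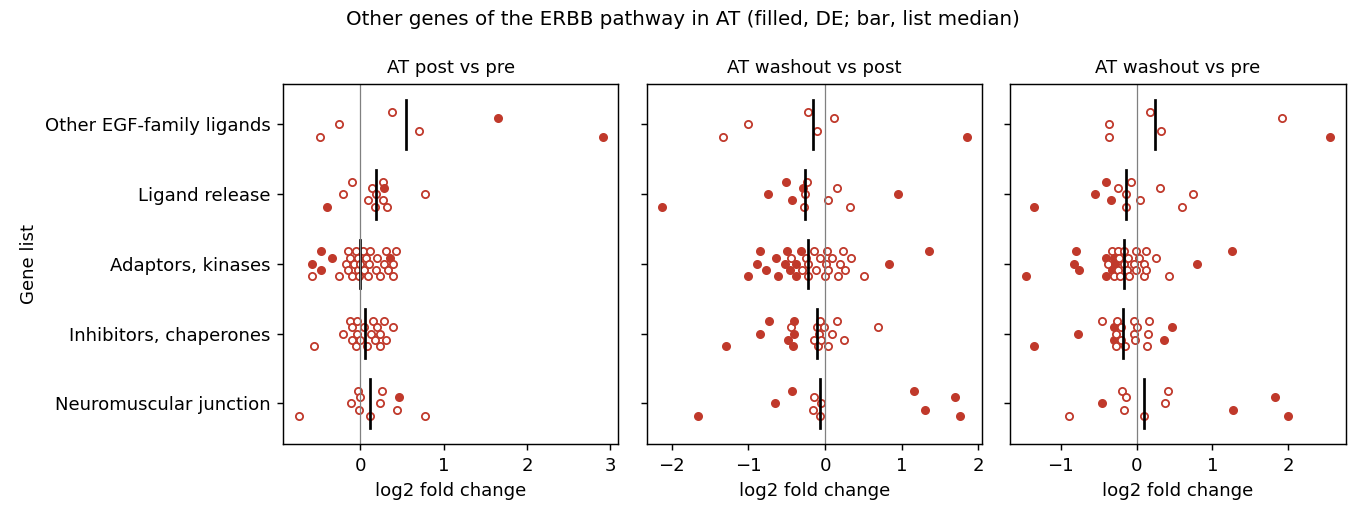
The log2 fold change (x axis) of each tested gene of 5 lists (y axis) in the 3 AT comparisons. Filled points are DE, open points are not, and black bars are list medians. From post to washout 12 of the 14 DE adaptors and kinases, 5 of the 6 DE release genes and all 7 DE inhibitors lie below 0.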

How the data were processed

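Poly(A) RNA of the biopsies was made into stranded libraries and sequenced as paired 50-nucleotide reads. Reads were aligned by the authors to MacaM, a rhesus genome assembly, using STAR, and raw read counts per gene were deposited for 48 libraries, with macaque genes named by human symbols. The submitters' notes also list FastQC, SAMtools, edgeR and limma. Of 51 labelled samples, 3 SM samples were without counts and not analysed here. Of 16103 entries, 70 that repeated a gene with identical counts were dropped, leaving 16033 genes.

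The members and gene lists were chosen with earlier results of these data known. Genes reaching 0.5 CPM in 10% of a tissue's libraries entered the tests (13367 in AT, 12617 in SM). Counts were TMM-scaled and fitted per tissue with time point and animal by edgeR 4.0.16 in R 4.3.3 (glmQLFit, robust, legacy=FALSE), two-sided, and SE is the log2 fold change over the root of F. The default legacy=TRUE form was fitted first and the members were seen under it. In all, 6 forms were fitted, and legacy=FALSE was kept because its DE counts equal those of an earlier description of these data. It is the 1 form of the 6 in which ERBB3 is not DE in AT. Both tissues were fitted together for differences between them, where the planned test of NRG4 before treatment was dropped because its AT pre values helped to choose it. Log2 CPM used a prior count of 2. Libraries of 1 animal correlated after removal of time point means (median r = 0.352 in AT and 0.279 in SM, against -0.0354 and -0.0464 for different animals), so animals were kept as a paired term. The fits were also run on simulated counts, whose planted changes were larger than those of ERBB2 and EGFR in AT. That run does not show how calls near the threshold behave.

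Named genes were all 7 members, at most 3 DE genes of smallest adjusted p per list and comparison, and the 5 genes most and 3 least like NRG4. Not every gene the rule names is described, and 1 is not reported here. Of 99 genes on the 5 pathway lists, 84 were in the table, and the other 15 were not analysed here. Alternatives were limma 3.58.1 voomWithQualityWeights, DESeq2 1.42.0, other scalings and filters, no animal term, 2 time points only, no fold change limit, the identifier series, and each animal left out. Added after seeing the data were the legacy forms and the fits without the libraries named in the text. No sequence or coordinates are given, because no genome of the build was used here.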

Additional observations from a re-analysis of the deposited data

Results flagged for a closer look

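Of 42 groups of member values tested, 7 had 1 library whose gap to its neighbour was large for the range of the group. The nominal rate of 1 in 20 (2.1) is that for normally distributed values, which skewed CPM and groups of zeros are not. NRG1 in SM washout, with 0 reads in 6 of 7 libraries, had a statistic fixed at 1. The 7 are thus not an excess over a known rate. For NRG1 these were AT washout of animal 20261 (0.640 CPM), SM pre of 21189 (0.395 CPM) and SM washout of 23004 (0.0611 CPM), all at 11 reads or fewer. For NRG2 it was SM washout of animal 21189 (1.83 CPM), for ERBB3 AT pre of 23004 (11.6 CPM), and for ERBB2 (47.7 CPM) and again ERBB3 (25.5 CPM) the SM post library of animal 21189, which had the lowest muscle fiber sum (71000 CPM).

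The change differed between tissues for EGFR from post to washout (AT minus SM, -1.44 on the log2 scale, adjusted p = 0.00426) and from pre to washout (-1.88, adjusted p = 4.96e-04), and for ERBB3 from pre to washout (3.15, adjusted p = 0.0264), by edgeR's quasi-likelihood test.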

How the results depend on the processing

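The NRG4 log2 fold changes in AT kept their sign under every alternative, from -1.80 to -1.08 from pre to post, 1.91 to 2.41 from post to washout and 0.61 to 0.83 from pre to washout. The alternatives reuse the AT values that chose NRG4, so this stability is description and supports nothing. The count of DE members other than NRG4 in AT rests on calls near the threshold. From pre to post it went from 1 to 0 with the identifier series as a covariate, in the last series alone, with only the 2 time points and without the 4 keratinocyte-high libraries, and was 0 to 1 with each animal left out. From post to washout it was 2 without the replicate block and in the last series alone, 0 without the 4 libraries, and 1 to 2 with animals left out. From pre to washout it was 2 with limma, DESeq2, RLE factors, no replicate block, the last series alone and the legacy fit, 3 with library size only, at least 10 counts in every library and the series covariate, 0 without the 4 libraries, and 1 to 3 with animals left out. In SM 1 member (ERBB3) was DE from post to washout in the last series alone, where 2 animals had both libraries. The count for the difference of change was 2 from post to washout without the replicate block, with the series covariate and in the last series alone, and 1 to 2 with animals left out in both washout comparisons. With limma the AT count from pre to post stayed at 1, with NRG1 in place of ERBB2. NRG1 entered that test through libraries where it was high. Without the replicate block no other count of members was moved by over 1.5 times. The cause of these moves was not tested.

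Of the member values, 46 changed sign under an alternative, and 0 of them passed the threshold before or after. With limma these were ERBB3 in AT from pre to post (-0.19), ERBB2 in AT from post to washout (-0.0086), and in SM ERBB2 (0.0768) and ERBB3 (0.34) from post to washout and NRG2 from pre to washout (0.23). NRG1 in AT from post to washout was -0.24 with DESeq2 and -0.14 in the legacy fit. EGFR in AT from pre to post was -0.0484 without the replicate block, -0.23 in the last series, -0.0023 with only the 2 time points and -0.0110 without the 4 libraries, where ERBB4 from post to washout was -0.22. In the last series NRG1 and ERBB4 in AT from pre to washout were 0.29 and 0.0835, and NRG4 in SM from pre to washout was 0.27. In SM from post to washout, NRG2 was -0.22 with library size only, -0.25 without the replicate block, -0.51 with the series covariate and -0.28 in the last series, and NRG4 was -0.0560 with library size only. Without the SM post library of 21189, NRG4 was 0.0065 from pre to post and -0.0628 from post to washout, and ERBB2 0.21 from post to washout. With the series covariate NRG4 in SM from pre to washout was 0.13, and NRG1 and NRG2 between tissues -0.14 and -0.20. With animals left out, values ranged from -0.12 to 0.19 for EGFR in AT from pre to post and -0.12 to 0.22 for ERBB4 in AT from post to washout. In SM they ranged from -0.31 to 0.0773 (NRG4) and -0.38 to 0.0747 (ERBB2) from pre to post, from -0.0605 to 0.18 (NRG4), -0.16 to 0.24 (NRG2) and -0.24 to 0.20 (ERBB2) from post to washout, and from -0.25 to 0.0256 (NRG4) and -0.90 to 0.0520 (NRG2) from pre to washout. Between tissues they ranged from -0.18 to 1.55 (NRG1) and -0.0607 to 0.68 (NRG2).

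Over all AT genes, 2068 were DE from pre to post in the reported fit, 1943 in the legacy fit and 1918 to 1966 in 4 further legacy forms, and from post to washout 4731, 4543 and 4511 to 4553. Over the 3 AT comparisons the reported fit called 3 members other than NRG4, and each of the 5 legacy forms called 4, the further call being ERBB3 from pre to washout (adjusted p = 0.0501 in the reported fit and 0.0445 to 0.0491 in the others). The form was chosen after these members had been seen. In the last series alone the AT counts were 810, 2224 and 1125, and without the 4 libraries 1276 from pre to washout. With an animal left out, that from pre to post ranged from 805 (22130) to 2214, with 998 without 20275, 1316 without 21189 and 1390 without 21866. The SM counts ranged from 2 (2 time points only, or without the post library of 21189) to 3026 from post to washout, with 224 without the replicate block, and from 1 (last series) to 1355 from pre to washout, with 41 without the block, and from 0 to 38 and 0 to 16 with animals left out. In the last series SM from pre to post is compared only through the washout libraries. The difference of change was significant for 4 genes from pre to post (0 with library size only to 118 in the last series), and for 2810 and 2245 genes in the washout comparisons (4377 and 3997 with the series covariate).

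The calls of the named pathway genes in AT were lost in 44 of 740 values, and 19 of 34 were kept in every alternative run. From pre to post the list counts ranged from 0 to 2 (ligands), 0 to 3 (release), 1 to 8 (adaptors) and 0 to 2 (junction), with the 20 inhibitors at 0 throughout. From post to washout they ranged from 12 to 18 (adaptors), 4 to 9 (inhibitors), 2 to 8 (release) and 5 to 7 (junction), and from pre to washout from 5 to 15, 1 to 9, 1 to 6 and 2 to 4. Of the 5 genes most like NRG4, 3 stayed among the first 5 with Spearman's rho, 4 with values centred within animals and 5 with a prior count of 0.5.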
